A study of Homo sapiens with 8 samples.

Results

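ER-associated degradation and UFMylation are described here through a list of 37 genes that was set by known function. A probe set was counted as a member when the array annotation gives it 1 gene symbol and that symbol is on the list. By this rule 34 of the 37 genes had a value, on 75 of the 54675 probe sets of the array. Of these genes, 13 were read by 1 probe set and 21 by several, up to 6. SYVN1 and UBXN6 are read only by probe sets that carry several symbols, and UFL1 has no probe set in the annotation used, so no value is given for these 3 genes. Probe sets of 1 gene share their target, so counts of probe sets are not counts of independent measurements, and the number of genes is given beside them.

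RPMI-8226 and JJN3 are established cell lines from human multiple myeloma, a cancer of antibody-secreting plasma cells. Each line was left uninfected, or was infected for 16 h, in 8 μg/mL polybrene, with a lentivirus that expressed a non-targeting (NT) shRNA, an shRNA against XBP1 or an shRNA against IRE1. The stated harvest time was 96 h, and the total RNA of each line and treatment was read on 1 array, which makes 8 arrays. A treatment thus has 2 samples, 1 of each line, and the tests over treatments set a difference against its spread between the lines. The labels name no separate cultures, no selection of infected cells and no second shRNA to either target.

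Proteins that fail to fold in the endoplasmic reticulum (ER) are recognised, moved back across the membrane, marked with ubiquitin and handed to the proteasome. Mannosidases of the EDEM family and the lectins OS9 and ERLEC1 select glycoproteins, the SYVN1-SEL1L complex with its derlin and HERPUD partners forms the main exit channel and ubiquitin ligase, and the ATPase VCP pulls the substrate out. UFM1 is a small ubiquitin-like protein that a dedicated set of enzymes attaches to ribosomes and other proteins at the ER membrane. XBP1 is a transcription factor of the unfolded protein response whose messenger RNA is spliced by the ER sensor IRE1, the product of ERN1. Many genes of ER-associated degradation are known targets of XBP1, and plasma cells rely on this branch for antibody secretion.

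The deposited values are log2-scale differences, since each probe set has a median of 0 over the 8 arrays. They rank arrays for 1 probe set, but give no level, no order between genes and no view of which probe sets are above background. For this reason the plasma cell label could not be checked by level. XBP1 (200670_at), a targeted gene, read 0.19 (uninfected), 0.025 (NT), -0.58 (XBP1 shRNA) and -0.60 (labelled IRE1 shRNA) in RPMI-8226, and 1.02, 1.11, -0.025 and -1.47 in the same order in JJN3. Taking the log base as 2, XBP1 with its own shRNA stood at 65.9% of NT shRNA in RPMI-8226 and 45.6% in JJN3. ERN1 (235745_at) read 2.75 (uninfected), 1.73 (NT), 0.29 (XBP1 shRNA) and 2.11 (labelled IRE1 shRNA) in RPMI-8226, and -0.29, -0.35, -1.57 and -1.24 in JJN3. The RPMI-8226 array labelled IRE1 shRNA held 130% of the ERN1 signal of NT shRNA, which goes against its label, whereas the JJN3 array held 53.9%. A further ERN1 probe set (227755_at) gave 117% and 44.7%, while 207061_at for ERN1 and 242021_at for XBP1 stayed within 87.1% to 114% of NT on every shRNA array. Over both lines, ERN1 on the arrays labelled IRE1 shRNA differed from NT by -0.26 ± 0.32 (235745_at) and -0.47 ± 0.31 (227755_at). Neither difference passed the threshold (limma adjusted p = 0.894 and 0.728). ERN1 (235745_at) was lower with XBP1 shRNA than on the arrays labelled IRE1 shRNA, at 36.7% of NT in RPMI-8226 and 42.9% in JJN3. XBP1 (200670_at) stood at 64.7% and 16.8% on the arrays labelled IRE1 shRNA, against 65.9% and 45.6% with its own shRNA. Both arrays labelled IRE1 shRNA are therefore called by their label. The XBP1 shRNA arrays too are named by their label only, and every direction drawn from any shRNA array carries this limit. A list of 9 plasma cell genes had a median difference of -0.35 between silenced and control arrays, with 16 of its 18 probe sets negative and none called. With XBP1 shRNA against NT its median was -0.47, and 1 probe set, of PRDM1, fell. Lists of T and NK cell genes (5 genes) and myeloid genes (4 genes measured) had no call and medians of 0.0036 and 0.098. The poly-A spike-in probe sets were highest with XBP1 shRNA in each line, with medians of 0.43 and 0.19, against -0.17 to 0.25 on the other arrays. The hybridisation controls were highest on the JJN3 array labelled IRE1 shRNA, at 0.42 against -0.15 to 0.088 elsewhere. The part of these differences in the results was not tested.

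Several genes that recognise substrates and several of the SYVN1 complex read lower on the silenced arrays. In both lines, 17 of the 75 member probe sets, from 9 genes, lay lower on both shRNA arrays than on both control arrays (uninfected and NT shRNA). This is 22.7% of the members, beside 4.11% of all 54613 probe sets tested. The 9 genes were EDEM2, EDEM3, ERLEC1, SEL1L, DERL3, HERPUD1, HERPUD2, UBXN4 and UFM1. In the opposite direction, 6 probe sets of 5 genes lay above both controls in both lines, which is 8% of the members beside 4.36% of all probe sets. These were both probe sets of VCP and 1 each of UFD1, UBXN8, YOD1 and UBE2G2. After quantile normalisation of the centred values, the share above was 5.33% of the members beside 4.36% of all. The higher values are therefore given as values only. The background holds probe sets of genes that these cells may not express, since levels are unknown, and this count was chosen after the values were seen. In bulk RNA, fewer cells of a kind and less RNA per cell cannot be told apart.

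**Figure D1:**
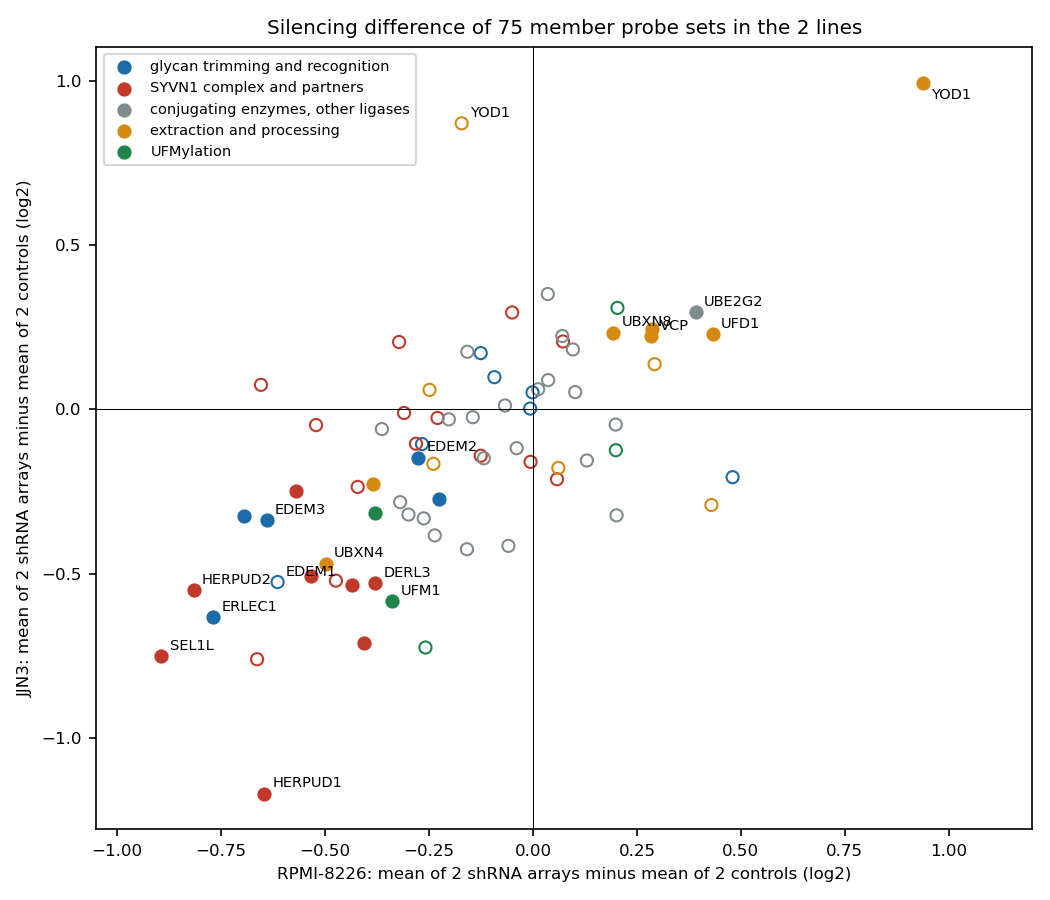
Difference between the mean of the 2 shRNA arrays and the mean of the 2 control arrays (log2) for the 75 member probe sets, RPMI-8226 on the horizontal axis and JJN3 on the vertical axis, coloured by role. Filled points lie beyond both controls in both lines (17 below, 6 above), and the SYVN1 complex and recognition genes make up most of the filled points in the lower left.

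By role, the lower values belonged to 5 of 12 probe sets (6 genes) of glycan trimming and recognition and 8 of 22 (9 genes) of the SYVN1 complex and its partners. The latter include all 3 probe sets of HERPUD2 and both of HERPUD1. They also belonged to 2 of 13 (7 genes) of extraction and processing and 2 of 5 (3 genes) of UFMylation, beside 4.11% of all probe sets. None of the 23 probe sets (9 genes) of conjugating enzymes and other ligases lay below both controls in both lines. The higher values belonged to 5 of the 13 extraction and processing probe sets and 1 of the 23 of conjugating enzymes and other ligases, beside 4.36% of all. As medians of the silenced minus control difference, the SYVN1 complex stood at -0.31, UFMylation at -0.35, recognition at -0.20, conjugating enzymes and other ligases at -0.061, and extraction at 0.21. The median over all members was -0.13 and that over all probe sets 0.0086. The differences between roles were not tested.

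**Figure D2:**
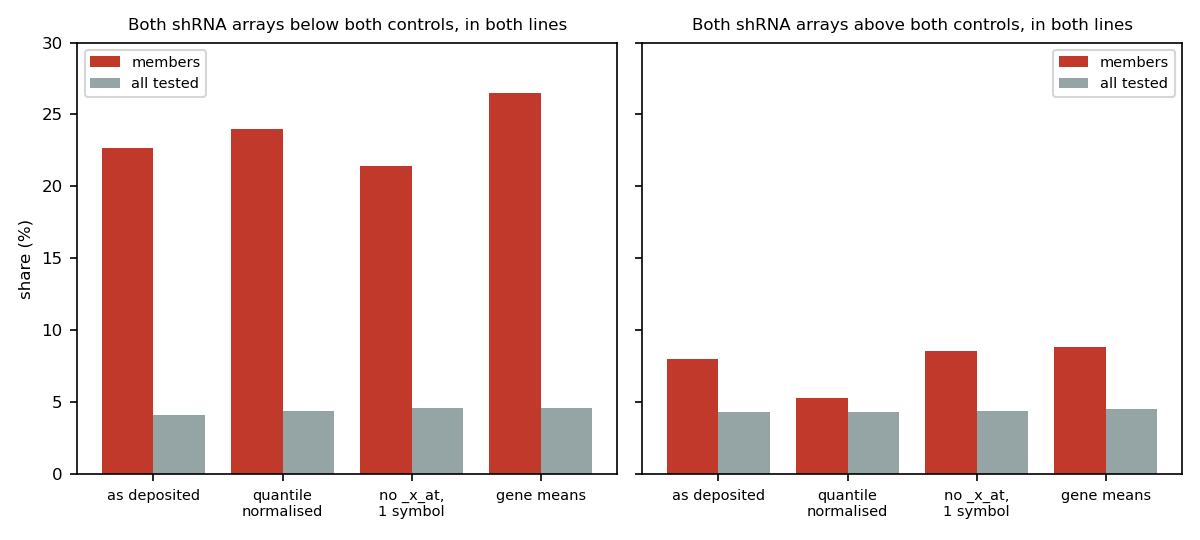
Share (%) of member probe sets and of all probe sets tested that lay below (left) or above (right) both control arrays on both shRNA arrays in both lines, for the values as deposited and for 3 other ways of preparing them. The share below both controls stayed between 21.4% and 26.5% for members and between 4.11% and 4.63% for all features. The share above moved between 5.33% and 8.82% for members and between 4.36% and 4.55% for all features.

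No member passed the adjusted threshold of 0.05 when the 4 silenced arrays were set against the 4 control arrays with the line as a block (limma, Benjamini-Hochberg over 54613 probe sets). The background for that test is the same, with 0% of all probe sets called. In that test the silenced side pools XBP1 shRNA with the arrays labelled IRE1 shRNA, and the control side pools uninfected cells with NT shRNA. The 4 arrays of a side are thus not replicates of a single treatment, and the spread holds differences between unlike treatments. At an unadjusted p under 0.05, 25 of the 75 members (33.3%) stood out beside 9.3% of all probe sets. The lowest adjusted p of a member was 0.154, for ERLEC1. Each gene below is therefore given by its values, and a lower or higher value that did not pass a test is a description of these arrays.

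HERPUD1 encodes a stress-induced membrane protein that holds the SYVN1 complex together, and it had the lowest silenced minus control difference of the members. Its probe set with the widest spread (217168_s_at) read 0.49 (uninfected), 0.079 (NT), -0.64 (XBP1 shRNA) and -0.079 (labelled IRE1 shRNA) in RPMI-8226. In JJN3 it read 0.61, 0.55, -0.50 and -0.68 in the same order. Both shRNA arrays were lower than both controls in each line, and the gap was wider in JJN3. Silenced arrays stood at 63.9% of control in RPMI-8226 and 44.5% in JJN3. The difference was -0.91 ± 0.17 (SE, 4 arrays against 4 with unlike treatments pooled on each side, limma adjusted p = 0.156). Without the RPMI-8226 array labelled IRE1 shRNA it was -1.07 and passed, with an adjusted p of 0.0466, and this was the only member call in that comparison when 1 array was left out. Its second probe set (1569380_a_at) gave -0.56 ± 0.13 and also lay below both controls in both lines.

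The promoter of HERPUD1 is shown because it was the only member window with the 2-part ER stress element II, to which factors of the unfolded protein response bind. The 250 bases before the start are given 5′ to 3′ from RefSeq, build GRCh38.p14, chr16:56931892-56932141 on the plus strand, with the element in capitals.
HERPUD1: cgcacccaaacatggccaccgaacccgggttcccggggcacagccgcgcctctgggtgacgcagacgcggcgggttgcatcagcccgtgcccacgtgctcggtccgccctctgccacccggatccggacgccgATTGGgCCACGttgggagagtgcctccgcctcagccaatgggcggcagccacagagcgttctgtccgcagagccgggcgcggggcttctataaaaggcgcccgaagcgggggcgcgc
The element (ATTGG, 1 free base, CCACG) lies at -117 to -107 from the start. It was searched on both strands in the windows of 27 listed genes, 250 bases before to 50 after the start, and 0.0541% of all 35116 such windows hold it. ER stress element I (CCAAT, 9 free bases, CCACG) was in 0 of the 27 and in 0.0769% of all. The genes not matched in the promoter table were DDRGK1, DERL1, DERL3, ERLIN1, ERLIN2, RNF139, RNF185, UBXN8, UFC1 and UFD1. A match is a description of the letters and says nothing of what bound there in these cells.

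HERPUD2 is a related membrane protein, and its 3 probe sets all lay below both controls in both lines. The one with the widest spread (222751_at) read -0.44 (uninfected), -0.79 (NT), -0.95 (XBP1 shRNA) and -1.15 (labelled IRE1 shRNA) in RPMI-8226, and 0.99, 1.20, 0.69 and 0.44 in JJN3. The silenced arrays were the lowest in each line, while every JJN3 array lay above every RPMI-8226 array. The difference was -0.49 ± 0.12 here, -0.68 ± 0.12 for 1558699_a_at and -0.52 ± 0.10 for 1552628_a_at, with adjusted p from 0.155 to 0.245.

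SEL1L is the scaffold that stabilises SYVN1 and gathers substrates from the lectins. On probe set 202063_s_at it read 0.079 (uninfected), -0.079 (NT), -1.30 (XBP1 shRNA) and -0.49 (labelled IRE1 shRNA) in RPMI-8226, and 1.02, 0.74, -0.18 and 0.44 in JJN3. The array with XBP1 shRNA was the lowest of each line, the array labelled IRE1 shRNA the next, and no shRNA array reached a control. With XBP1 shRNA, SEL1L on this probe set fell by 1.07 ± 0.14 log2 units from NT shRNA (n = 2 against 2, limma adjusted p = 0.0181), to 42.9% of NT in RPMI-8226 and 52.8% in JJN3. The other 3 probe sets gave -0.73 ± 0.20 (202061_s_at), -0.49 ± 0.24 (202062_s_at) and -0.34 ± 0.25 (202064_s_at), all negative and none called. On 202064_s_at the JJN3 array with XBP1 shRNA, at 0.58, was above the NT array at 0.30, so the probe sets of SEL1L disagreed in that line. The call on 202063_s_at was lost without the NT array of RPMI-8226 (adjusted p = 0.169), without that of JJN3 (0.101) and without the XBP1 shRNA array of RPMI-8226 (0.0652), over a range of 0.0368 to 0.169 when each array was left out in turn. It was lost without the line as a block too (adjusted p = 1), where the spread holds the difference between the lines.

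The derlins are membrane proteins thought to form the exit channel with SYVN1. DERL3, the derlin most typical of secretory cells, read 0.93 (uninfected), 0.64 (NT), 0.31 (XBP1 shRNA) and 0.49 (labelled IRE1 shRNA) in RPMI-8226 on 229721_x_at, and -0.31, -0.49, -1.09 and -0.77 in JJN3. The silenced arrays were lowest in each line, with a difference of -0.45 ± 0.12 here, -0.41 ± 0.13 on 228897_at and -0.13 ± 0.11 on 229719_s_at, which overlapped the controls. DERL2 (218333_at) was lowest on the array labelled IRE1 shRNA in each line, at -0.98 and 0.21. On 226719_at DERL2 was instead lowest with XBP1 shRNA, at -0.64 and 0.017. DERL1 showed little difference, with its 4 probe sets at -0.16 to 0.12 between silenced and control arrays. The other partners, FAF2 (which recruits VCP), AUP1 (which recruits the conjugating enzyme UBE2G2) and the selenoprotein SELENOS, had differences of 0.14 ± 0.10, -0.083 ± 0.14 and -0.059 ± 0.14 on their widest-ranging probe sets. The other FAF2 probe set (212106_at) had the opposite sign, -0.28 ± 0.13, and lay below both controls in RPMI-8226 but not in JJN3. Over the 22 probe sets of this complex (9 genes), 20 were negative with XBP1 shRNA against NT and 19 on the arrays labelled IRE1 shRNA. Within a line, 48.9% to 50.9% of all probe sets were negative in these comparisons, which share the NT arrays. Only the SEL1L probe set above was called.

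Among the genes that trim and recognise glycans, EDEM3, a mannosidase, read 0.88 (uninfected), 0.97 (NT), -0.060 (XBP1 shRNA) and 0.63 (labelled IRE1 shRNA) in RPMI-8226 on 223243_s_at. In JJN3 it read -0.081, 0.060, -0.42 and -0.27. The array with XBP1 shRNA was lowest in both lines and the one labelled IRE1 shRNA lay between it and the controls. Against NT shRNA the difference was -0.76 ± 0.18 with XBP1 shRNA (adjusted p = 0.0832) and -0.91 ± 0.20 on 220342_x_at (adjusted p = 0.067), neither past the threshold. The third EDEM3 probe set (220926_s_at) gave -0.38 ± 0.18 with XBP1 shRNA (adjusted p = 0.421) and 0.037 ± 0.18 on the arrays labelled IRE1 shRNA, and it overlapped the controls in both lines. EDEM1, another member of the family, read 1.47 (uninfected), 0.64 (NT), 0.21 (XBP1 shRNA) and 0.68 (labelled IRE1 shRNA) in RPMI-8226, and -0.22, -0.21, -0.29 and -1.19 in JJN3. Its groups overlapped in RPMI-8226, where the array labelled IRE1 shRNA was above NT, and in JJN3 a single array stood low. EDEM2, which starts the trimming, read -0.22, -0.085, -0.31 and -0.55 in RPMI-8226, in the same order, and 0.26, 0.25, 0.13 and 0.085 in JJN3, with the silenced arrays lowest in each, though the difference was only -0.21 ± 0.10.

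ERLEC1 is a lectin that reads trimmed glycans. On 224628_at it read 0.95 (uninfected), 0.58 (NT), -0.11 (XBP1 shRNA) and 0.11 (labelled IRE1 shRNA) in RPMI-8226, and 0.050, -0.050, -0.51 and -0.76 in JJN3, with every silenced array below every control of its line. The difference was -0.70 ± 0.12 there and -0.25 ± 0.11 on 224630_at. The probe set with the widest spread (244452_at) went the other way, at 0.14 ± 0.26, because its XBP1 shRNA arrays (1.01 and -0.52) were above NT (0.018 and -1.08), so no single direction can be given for ERLEC1. The lectin OS9 hardly varied, from -0.076 to 0.084 over both probe sets and all arrays. The mannosidase MAN1B1 had differences of 0.0024 ± 0.12 and 0.023 ± 0.11.

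**Figure D3:**
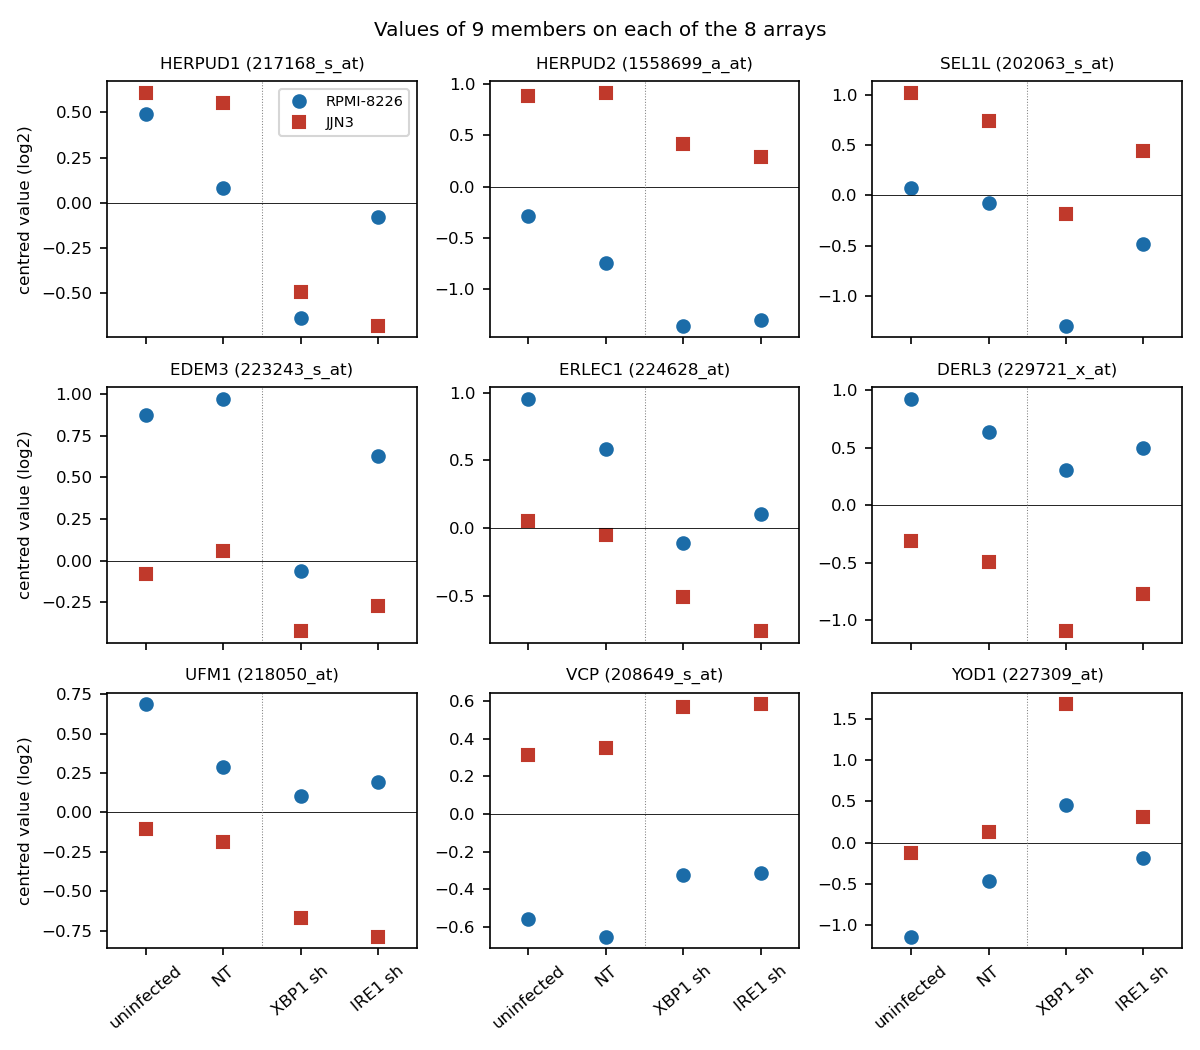
Centred log2 values of 9 members on each of the 8 arrays, by treatment, with RPMI-8226 as circles and JJN3 as squares and a dotted line between controls and shRNA arrays. Each gene is shown by its probe set with the lowest unadjusted p between silenced and control arrays, so the panels were chosen for this pattern. On these probe sets HERPUD1, HERPUD2, SEL1L, EDEM3, ERLEC1, DERL3 and UFM1 lie lower to the right of the line in each cell line, and VCP and YOD1 lie higher, whereas other probe sets of SEL1L, EDEM3, ERLEC1, DERL3, UFM1 and YOD1 overlap the controls.

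The conjugating enzymes UBE2G2, UBE2J1 and UBE2J2 carry ubiquitin to the ligases, and RNF5, RNF139 and RNF185 are ligases beside SYVN1. With the erlins and TMUB1 these make 9 genes and 23 probe sets, of which 9 were positive and 14 negative between silenced and control arrays, with none called. UBE2G2 on 1557053_s_at was the 1 probe set beyond both controls in both lines, at -0.33 (uninfected), -0.35 (NT), -0.0068 (XBP1 shRNA) and 0.11 (labelled IRE1 shRNA) in RPMI-8226 and 0.0068, -0.16, 0.12 and 0.33 in JJN3. Its other 3 probe sets gave -0.079 to 0.15. UBE2J1 on 228924_s_at, its probe set of widest spread, differed between the controls as much as from the shRNA arrays. It read 0.68 uninfected and -0.011 with NT shRNA in RPMI-8226, then 0.57 and 0.50 on the shRNA arrays. In JJN3 the same probe set read 0.011, -0.28, -0.23 and -0.13. Over the 6 probe sets of UBE2J1 the silenced minus control difference ran from -0.31 to 0.076, with 5 negative. RNF5, whose second probe set is left out because it also reads a pseudogene, RNF139, RNF185 and TMUB1 had silenced minus control differences of 0.063, -0.12, -0.13 and -0.028, and the 4 probe sets of UBE2J2 ranged from -0.084 to 0.19.

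The erlins are membrane scaffolds for degradation of the IP3 receptor and other targets. ERLIN1 (202444_s_at) was highest with NT shRNA in each line, at -0.18, 0.82, 0.13 and -0.012 in RPMI-8226 and -0.18, 0.22, -0.63 and 0.012 in JJN3 (uninfected, NT, XBP1 and the array labelled IRE1). The difference of XBP1 shRNA from NT was -0.78 ± 0.21, but from uninfected cells it was -0.073 ± 0.21, because NT stood 0.70 ± 0.21 above uninfected. None of these passed the threshold, and the other ERLIN1 probe set (202441_at) was 0.14 ± 0.19 between silenced and control arrays, beside -0.30 ± 0.22 for this one. ERLIN2 read -2.27, -1.74, -2.38 and -2.27 in RPMI-8226 on 238615_at, in the same order, and 2.08, 2.34, 1.74 and 2.11 in JJN3, a gap between lines far wider than any between treatments.

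VCP, the ATPase that pulls ubiquitinated proteins out of the membrane, was higher on the silenced arrays. On 208648_at it read -0.73 (uninfected), -0.65 (NT), -0.51 (XBP1 shRNA) and -0.30 (labelled IRE1 shRNA) in RPMI-8226, and 0.30, 0.53, 0.62 and 0.64 in JJN3. The difference was small but of the same sign in both lines, 0.25 ± 0.10 here and 0.26 ± 0.085 on 208649_s_at (adjusted p = 0.464 and 0.359). Its cofactor UFD1 read -0.66 (uninfected), -0.55 (NT), -0.14 (XBP1 shRNA) and -0.21 (labelled IRE1 shRNA) in RPMI-8226, and 0.45, 0.14, 0.46 and 0.59 in JJN3, with a difference of 0.33 ± 0.11. UFD1 in uninfected JJN3 cells (0.45) was close to the XBP1 shRNA array (0.46), and after quantile normalisation UFD1 no longer lay above both controls in both lines. NPLOC4, the partner of UFD1, showed no such pattern (-0.095 ± 0.11).

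The promoter of VCP is shown because it held the core of the unfolded protein response element, to which XBP1 and ATF6 bind. It is given 5′ to 3′, the 250 bases before the start from RefSeq, build GRCh38.p14, chr9:35072626-35072875 on the minus strand, with the core in capitals.
VCP: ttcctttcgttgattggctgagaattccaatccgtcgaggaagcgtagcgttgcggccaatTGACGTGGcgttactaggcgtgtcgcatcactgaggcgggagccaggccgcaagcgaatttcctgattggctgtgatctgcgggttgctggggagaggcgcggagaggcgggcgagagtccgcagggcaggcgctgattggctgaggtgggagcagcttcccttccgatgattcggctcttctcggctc
The core TGACGTGG lies at -189 to -182 from the start. It was searched on both strands, and 2 of the 27 listed genes with a window hold it, VCP and UBE2J1 (opposite strand, -231 to -224 from the start), beside 0.729% of all 35116 windows. VCP was higher on the silenced arrays. UBE2J1 was negative on 5 of its 6 probe sets and positive on 1 (-0.31 to 0.076), with none called.

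UBXN4 and UBXN8 are membrane adaptors that bring VCP to the ER. UBXN4 (212007_at) read 0.057 (uninfected), -0.057 (NT), -0.32 (XBP1 shRNA) and -0.68 (labelled IRE1 shRNA) in RPMI-8226, and 0.46, 0.58, 0.28 and -0.17 in JJN3. The array labelled IRE1 shRNA was the lowest in each line, -0.69 ± 0.14 against NT (adjusted p = 0.185). The probe sets 212006_at and 212008_at had the same sign against NT (-0.30 ± 0.15 and -0.52 ± 0.16), and 1562741_at the opposite one (0.26 ± 0.22). UBXN8, in contrast, read 0.28, 0.11, 0.37 and 0.41 in RPMI-8226 and -0.37, -0.52, -0.11 and -0.32 in JJN3 (uninfected, NT, XBP1 and the array labelled IRE1), above both controls in each. The glycanase NGLY1, which strips glycans from extracted proteins, had differences of -0.059 ± 0.15 and 0.21 ± 0.13.

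YOD1, a deubiquitinase that works with VCP, was the only member that rose against NT shRNA in any treatment comparison, and it did so with XBP1 shRNA. On 227309_at it read -1.14 (uninfected), -0.46 (NT), 0.45 (XBP1 shRNA) and -0.18 (labelled IRE1 shRNA) in RPMI-8226, and -0.13, 0.13, 1.67 and 0.31 in JJN3. The XBP1 shRNA array was the highest of each line, and the array labelled IRE1 shRNA stood only a little above NT. Against NT shRNA, YOD1 rose by 1.23 ± 0.19 on the log2 scale (n = 2 against 2, limma adjusted p = 0.0284), to 189% of NT in RPMI-8226 and 292% in JJN3. The call was lost without either uninfected array (adjusted p = 0.0545 for each), without the NT array of RPMI-8226 (0.159) or of JJN3 (0.189) and without the XBP1 shRNA array of JJN3 (0.0946), over a range of 0.0342 to 0.189. The line as a block was needed as well, since without it the adjusted p was 1. The second probe set, 215150_at, was high on 1 array only, at 1.92 with XBP1 shRNA in JJN3, whereas in RPMI-8226 it read -0.25 with XBP1 shRNA and 0.10 with NT.

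UFM1, the modifier itself, was lower on the silenced arrays on all 3 probe sets. On 218050_at it read 0.69 (uninfected), 0.29 (NT), 0.11 (XBP1 shRNA) and 0.19 (labelled IRE1 shRNA) in RPMI-8226, and -0.11, -0.19, -0.67 and -0.79 in JJN3. The difference was -0.46 ± 0.12 there, -0.49 ± 0.16 on 222502_s_at and -0.35 ± 0.12 on 242669_at, with adjusted p from 0.252 to 0.411. The first and last of these lay below both controls in both lines, and on 222502_s_at the uninfected RPMI-8226 array (0.16) was under the XBP1 shRNA array (0.25). UFC1, the enzyme that carries UFM1, was high with XBP1 shRNA alone, at 0.12, -0.049, 0.51 and -0.033 in RPMI-8226 and -0.11, 0.033, 0.59 and -0.045 in JJN3 (uninfected, NT, XBP1 and the array labelled IRE1). That difference, 0.56 ± 0.15 against NT, did not pass (adjusted p = 0.116). DDRGK1, an anchor of the UFM1 ligase at the ER, gave 0.037 ± 0.12 between silenced and control arrays.

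Each shRNA, as labelled, was then compared with NT shRNA and with the other. XBP1 shRNA against NT shRNA called 2 of the 75 members (2.67%), SEL1L and YOD1 as above, beside 1.21% of all probe sets. With unadjusted p under 0.05, 20 members (26.7%) stood out beside 13.7% of all. On the probe set of widest spread per gene, the lowest differences were HERPUD1 (-0.88 ± 0.23), ERLIN1 (-0.78 ± 0.21) and EDEM3 (-0.76 ± 0.18), and the highest YOD1, ERLEC1 (0.78 ± 0.23) and UFC1 (0.56 ± 0.15). Of all members, 51 were negative, with a median of -0.15 against 0.00059 over all probe sets.

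The arrays labelled IRE1 shRNA against NT shRNA called none of the members, beside 0.0183% of all probe sets. With unadjusted p under 0.05, 21 members (28%) stood out beside 9.47% of all, with 45 negative and a median of -0.13 against 0.0037. HERPUD1 (-0.70 ± 0.23), UBXN4 and HERPUD2 (-0.56 ± 0.17) were lowest by their widest-ranging probe sets, and UFD1 (0.40 ± 0.16), UBE2J1 (0.33 ± 0.16) and ERLEC1 (0.29 ± 0.23) highest. ERN1 was not reduced on the RPMI-8226 array of this pair, and both comparisons share the NT arrays.

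**Figure D4:**
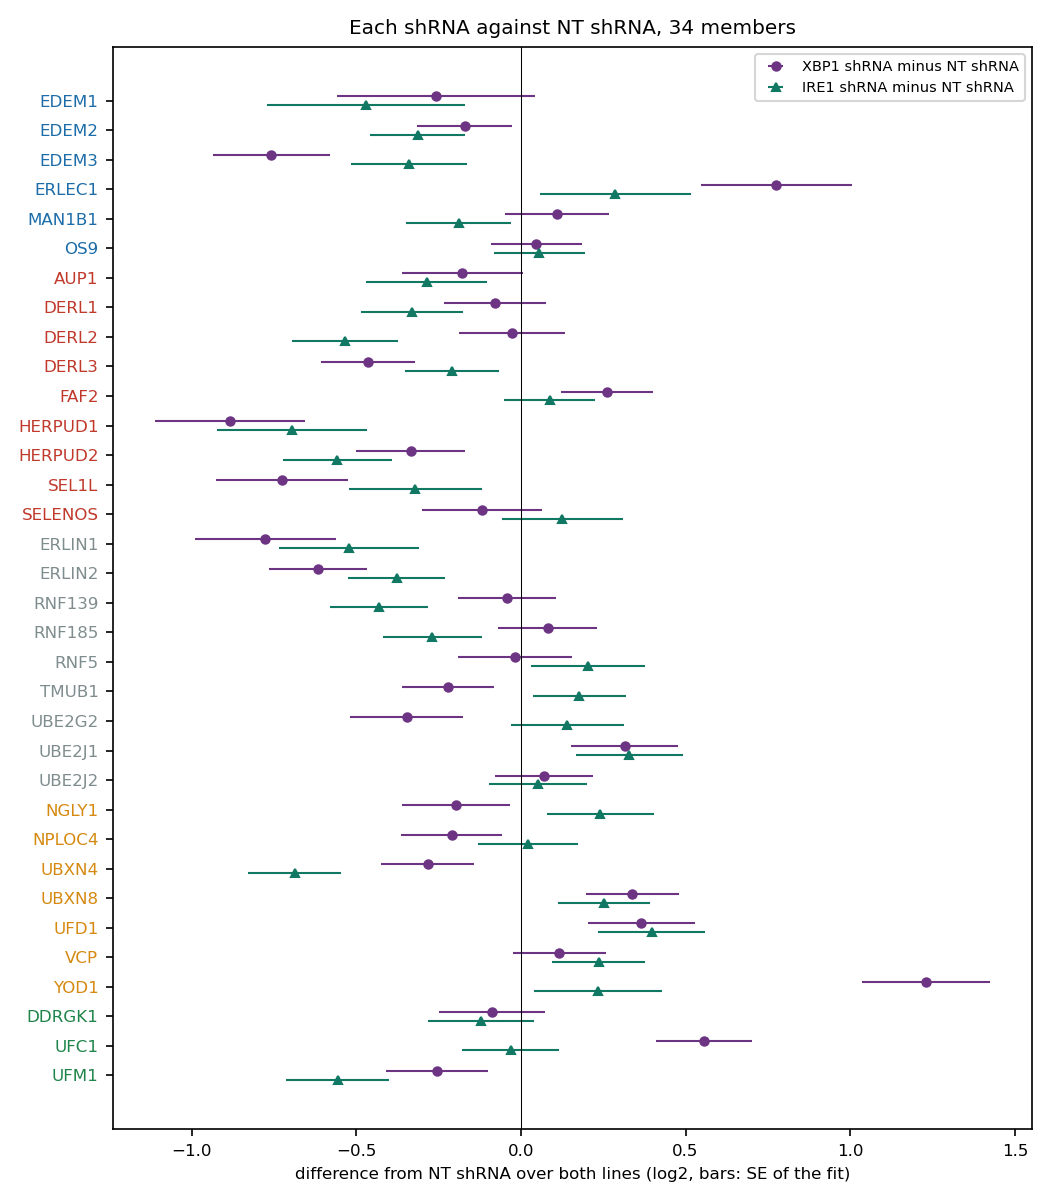
Difference from NT shRNA over both lines (log2; bars are SE of the fit) for the probe set of widest spread of each of the 34 genes, with XBP1 shRNA as circles and the arrays labelled IRE1 shRNA as triangles, gene names coloured by role. HERPUD1 is low with both (-0.88 and -0.70), whereas YOD1 and UFC1 are high with XBP1 shRNA and near NT on the other arrays (0.23 and -0.031).

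Set directly against XBP1 shRNA, the arrays labelled IRE1 shRNA differed on 2 of the 75 members (2.67%), beside 1.9% of all probe sets. SEL1L (202063_s_at) was 0.72 ± 0.14 higher (limma adjusted p = 0.0441), and YOD1 (227309_at) was lower, with a difference of -1.0 ± 0.19 (adjusted p = 0.0404). Leaving out any 1 of the 8 arrays ended the SEL1L call (adjusted p from 0.0704 to 0.302). For YOD1, leaving out any array other than the XBP1 shRNA array of RPMI-8226 (0.0372) did so (0.0632 to 0.367), and quantile normalisation ended both (0.146 for SEL1L and 0.0504 for YOD1). UFC1 (-0.59 ± 0.15) and DERL2 (-0.51 ± 0.16) were the next lowest of the widest-ranging probe sets, and UBE2G2 (0.49 ± 0.17), NGLY1 (0.44 ± 0.16) and EDEM3 (0.42 ± 0.18) the highest, none of them called.

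NT shRNA against uninfected cells shows what infection with a control virus goes with. It called 0 members, as it called 0% of all probe sets (limma), with 12 members (16%) at an unadjusted p under 0.05 beside 5.57% of all. ERLEC1 on 244452_at was lowest (-0.79 ± 0.23), then UBE2J1 on 228924_s_at (-0.49 ± 0.16) and EDEM1 (-0.41 ± 0.30), and ERLIN1 highest (0.70 ± 0.21), then YOD1 (0.47 ± 0.19) and ERLIN2 (0.39 ± 0.15). These gaps between the controls are as large as many of the differences above.

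With uninfected cells in place of NT shRNA as the control, XBP1 shRNA called 6 of the 75 members (8%), beside 2.11% of all probe sets. SEL1L fell on 202063_s_at, with a difference of -1.29 ± 0.14 (adjusted p = 0.0114), and on 202061_s_at, with -1.10 ± 0.20 (0.0337). HERPUD1 fell on 217168_s_at (-1.12 ± 0.23, adjusted p = 0.0457), ERLEC1 on 224628_at (-0.81 ± 0.16, 0.0456) and DERL3 on 229721_x_at (-0.70 ± 0.14, 0.0453). YOD1 rose on 227309_at, with 1.70 ± 0.19 (adjusted p = 0.0114). The arrays labelled IRE1 shRNA called no member against uninfected cells, beside 0.00183% of all probe sets. Both comparisons share the shRNA arrays with those against NT.

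Whether silencing differed between the lines was tested as an interaction, and 0 members were called, beside 0% of all probe sets (limma). With unadjusted p under 0.05 there were 3 members (4%), SEL1L 202064_s_at, UBXN4 1562741_at and SELENOS, beside 5.23% of all probe sets. This share is no higher than the background, so the 3 are given as values only. SEL1L 202064_s_at gave -0.65 in RPMI-8226 and 0.074 in JJN3. UBXN4 1562741_at gave 0.43 and -0.29, and SELENOS -0.32 and 0.20. With 2 arrays on each side within a line, this design can show only large differences. The shRNA arrays of a line are unlike treatments, as are its control arrays, yet each pair stood as replicates in this test.

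The lines themselves differed far more than the treatments. Over the 4 treatments, JJN3 and RPMI-8226 differed on 51 of the 75 members (68%), 28 higher and 23 lower in JJN3, beside 56% of all probe sets. The 4 arrays of a line are 4 treatments of 1 cell line, with no separate cultures named. The SE and adjusted p of a line difference therefore do not measure variation between independent cultures. All 4 JJN3 arrays lay above all 4 RPMI-8226 arrays on 24 members (32%; 18.9% of all) and below them on 17 (22.7%; 29.8% of all). By gene, 14 of the 34 were only higher in JJN3, 12 only lower, 2 had calls in both directions and 6 had none (OS9, HERPUD1, NPLOC4, ERLIN1, NGLY1 and UFC1). HERPUD1, which had the lowest silenced minus control difference of the members, had no difference called between the lines (0.030 ± 0.16). A sign of RNA quality moved with the lines as well. The actin control probes at the 3′ end, minus those at the 5′ end, stood at -0.61 to -0.43 on the RPMI-8226 arrays and at 0.13 to 0.42 on the JJN3 arrays, so the lines did not overlap. For GAPDH the lines overlapped, with JJN3 arrays at 0.0037 to 0.046 inside the RPMI-8226 span of -0.083 to 0.062. The part of this in the line differences, and in probe sets of 1 gene that disagree between the lines, was not tested.

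ERLIN2 had the widest line gap, 4.24 ± 0.10 on 238615_at (adjusted p = 6.62e-09), which is 18.9-fold if the base is 2. The other 2 probe sets, at 1.21 ± 0.11 and 1.16 ± 0.11, were higher in JJN3 by far less. HERPUD2 (1.66 ± 0.12), SEL1L (1.50 ± 0.14), FAF2 (1.30 ± 0.10), RNF139 (1.11 ± 0.10), VCP (1.07 ± 0.10), SELENOS (0.99 ± 0.13) and DERL2 (0.88 ± 0.11) were also higher in JJN3 (adjusted p from 3.68e-06 to 2.01e-04). Higher by less were YOD1 (0.83 ± 0.14), UFD1 (0.80 ± 0.11), UBXN4 (0.54 ± 0.10), EDEM2 (0.47 ± 0.10), MAN1B1 (0.42 ± 0.11) and TMUB1 (0.27 ± 0.10). UBXN4 was called on only 1 of its 4 probe sets, which ran from -0.26 to 0.54, so its sign depends on the probe set. YOD1 was called on only 1 of its 2 probe sets (0.76 and 0.83). SEL1L, HERPUD2 and ERLIN2 thus stood higher in JJN3 with every treatment, while the TMUB1 call was lost without any 1 of the 8 arrays (adjusted p up to 0.154).

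Lower in JJN3 were DERL3 (-1.26 ± 0.10), EDEM1 (-1.22 ± 0.21), ERLEC1 (-1.17 ± 0.16) and EDEM3 (-0.78 ± 0.12). EDEM3 was called on 2 of its 3 probe sets, which ran from -0.89 to -0.27. The ligases RNF185 (-0.69 ± 0.11) and RNF5 (-0.49 ± 0.12) and the conjugating enzymes UBE2J1 (-0.59 ± 0.12), UBE2J2 (-0.47 ± 0.10) and UBE2G2 (-0.38 ± 0.12) were lower as well, as were AUP1 (-0.72 ± 0.13), UBXN8 (-0.62 ± 0.10) and DDRGK1 (-0.38 ± 0.11). The conjugating enzymes were called on only some of their probe sets. These were 1 of 4 for UBE2G2 (all 4 from -0.38 to 0.22), 3 of 6 for UBE2J1 (-0.59 to 0.034) and 1 of 4 for UBE2J2 (-0.47 to -0.23). Leaving out 1 array could end the calls of UBE2G2 (adjusted p up to 0.115) and DDRGK1 (up to 0.0782). DERL1 and UFM1 had calls in both directions, so neither can be placed. DERL1 was 0.78 on 218172_s_at and 0.72 on 222543_at, but -0.80 on 219402_s_at and -0.65 on 225488_at. UFM1 was 0.94 on 242669_at, but -0.76 on 218050_at and -0.68 on 222502_s_at. These probe sets correlated negatively over the 8 arrays, down to -0.90 for DERL1 and -0.61 for UFM1.

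**Figure D5:**
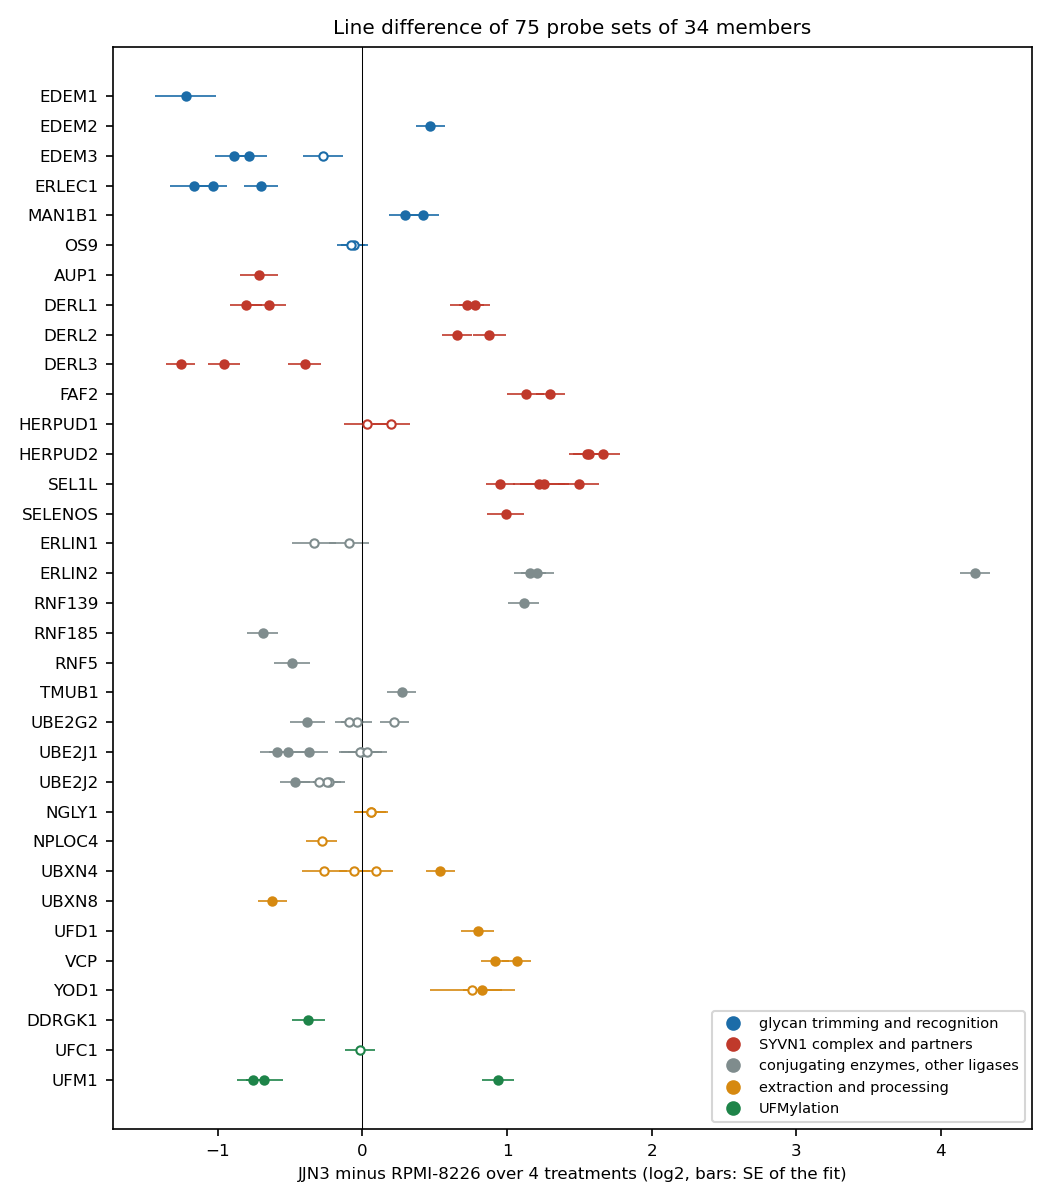
JJN3 minus RPMI-8226 over 4 treatments (log2; bars are SE of the fit) for the 75 probe sets of the 34 genes, filled where the adjusted p is under 0.05, coloured by role. ERLIN2 reaches 4.24, and DERL1 and UFM1 have filled points on both sides of 0.

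A further list of 54 genes of the same pathways, of which 48 were measured on 139 probe sets, gave 3 calls for XBP1 shRNA against NT (2.16%, beside 1.21% of all probe sets). The co-chaperone DNAJB9, a helper of the ER chaperone BiP, fell on 202842_s_at (-1.08 ± 0.17) and 202843_at (-1.25 ± 0.19), with -0.70 ± 0.16 on 1554462_a_at, which was not called. The disulphide reductase DNAJC10 rose on 229588_at (by 1.04 ± 0.18), while its other 4 probe sets gave -0.073, 0.013, 0.031 and 0.33 (adjusted p from 0.364 to 0.986). DNAJC10 on 229588_at read -0.0067, -0.87, 0.0067 and 0.029 in RPMI-8226 and -0.37, -0.96, 0.24 and 0.31 in JJN3 (uninfected, NT, XBP1 and the array labelled IRE1), so its NT array was the lowest of each line. No gene of this list was called for the arrays labelled IRE1 shRNA against NT, and 1 probe set was against XBP1 shRNA (0.719%, beside 1.9% of all), the ligase MARCHF6 on 201736_s_at (-1.05 ± 0.14, adjusted p = 0.0145), whose other 5 probe sets gave -0.36 to 0.18. Between lines 60 of the 139 probe sets were higher and 26 lower in JJN3 (61.9%, beside 56% of all).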

How the data were processed

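Total RNA of 8 samples (2 lines, 4 treatments) was hybridised to Affymetrix U133 Plus 2.0 arrays. Per the submitters' processing notes the authors used RMA, with no version given. The deposited log2 values were centred by the authors on a median of 0 per probe set (54675 of 54675, tolerance 1e-05); the log base and the centring are read from the values. Values run from -5.73 to 5.45, and the number of arrays limits the precision.

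After 62 array controls were set aside, limma 3.58.1 in R 4.3.3 (lmFit, eBayes, two-sided) was fitted to 54613 probe sets with Benjamini-Hochberg adjustment over all of them and a threshold of 0.05. The test was checked on simulated data with independent normal noise and planted differences. Such data cannot show how far the lines stand for replicates or whether a label is right. Treatment comparisons and the silenced against control comparison held the cell line as a block, because same-numbered samples are the same cell line; the line comparison held the treatment. Residual degrees of freedom were 3 for treatments and lines, 5 for silenced against control and 4 for the interaction.

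The members and gene lists were chosen with earlier results of these data known, and the count beyond both controls and its alternatives were added after the values were seen. The genes named are the members called in any comparison and, per comparison, the 3 largest differences in each direction by the probe set with the highest SD of each gene; those called only between lines are given by their difference. Symbols come from the platform annotation, and all 75 member probe sets have the same symbol in the RefSeq gene table. Promoters are RefSeq windows (GRCh38.p14). Alternatives were quantile normalisation, no block, robust eBayes, 1 value per gene, fewer probe sets, another control and leaving out each array. The quantile normalisation was applied to the centred values, so it evens the distribution of centred values between arrays and not that of signal.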

Additional observations from a re-analysis of the deposited data

Results flagged for a closer look

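In each line the 4 arrays of each member probe set were checked for a single array that stands apart from the other 3 by Dixon's test. Of 150 such sets 8 did, and chance gives about 1 in 20. YOD1 on 215150_at read 1.92 with XBP1 shRNA in JJN3, against 0.13 for the nearest array. EDEM1 on 203279_at read -1.19 on the JJN3 array labelled IRE1 shRNA, against -0.29 for the nearest. DERL2 on 226719_at read 0.017 with XBP1 shRNA in JJN3, against 0.51. MAN1B1 on 218636_s_at read 0.38 on the same array, against 0.083. UBE2G2 on 232755_at read -0.35 there, against -0.035, and on 209041_s_at it read 0.20 with NT shRNA in JJN3, against 0.0075. In RPMI-8226, UBE2J1 on 222435_s_at read -0.019 with NT shRNA, against 0.34, and UBXN4 on 212008_at read -0.43 on the array labelled IRE1 shRNA, against -0.047.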

How the results depend on the processing

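Only some results of single probe sets were followed under the alternatives. Of their values, 1140 kept their direction and their side of the threshold, 81 kept the direction but lost the call, 2 gained one and 3 reversed. Calls gained by other probe sets are not in this tally. With uninfected cells as the control, for instance, XBP1 shRNA called 6 members, of which 2 were called against NT shRNA. The 3 that reversed were line differences under 1 mean value per gene, where DERL1 became 0.011 (219402_s_at and 225488_at) and UFM1 -0.17 (242669_at), because probe sets of opposite sign were averaged. Without the line as a block (the replicate block), 0 members were called for XBP1 shRNA against NT and 0 for IRE1 against XBP1 shRNA, in place of 2 each, where the spread then holds the line difference; the line comparison without its block kept 47 of 51. With the probe set of highest SD per gene each of these treatment comparisons called 1, and with gene means 0, while the line comparison called 28 and 24 of 34 genes. Quantile normalisation left 0 calls for IRE1 against XBP1 shRNA, and uninfected cells as the control gave 6 for XBP1 shRNA. When each array was left out in turn, XBP1 shRNA against NT called 0 to 2, IRE1 against XBP1 shRNA 0 to 2, silenced against control 0 to 1 and the line comparison 46 to 49; where 1 array of a treatment remained, it was assumed to vary like the others. Calls between lines that were lost without at least 1 array were 7, of DDRGK1, DERL3, MAN1B1, TMUB1, UBE2G2 and UBE2J1. The count below both controls in both lines (17) was 9 of 34 with gene means. It was 26 of 75 with NT as the only control (34.7%, beside 12.6% of all probe sets), 25 with uninfected cells as the only control (33.3% beside 11.3%), 32 with the XBP1 shRNA arrays only (42.7% beside 15.5%) and 26 with those labelled IRE1 shRNA only (34.7% beside 12.5%). The count above (6) was 3 of 34 with gene means and 11 (14.7%) with NT only, uninfected only or the arrays labelled IRE1 shRNA only, beside 12.7%, 14% and 13.6% of all. With the XBP1 shRNA arrays only it was 8 (10.7%), under the 16.5% of all, so the share above was near or under the background under these looser rules. Signal over background is not known for these values, so no limit by depth can be given.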
